A study of Homo sapiens with 4 samples.

Results

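The nuclear genes for mitochondrial ribosomal proteins were examined in SK-N-BE(2) cells after knockdown of SAPCD2. Members were the protein-coding genes whose GENCODE symbol is MRPL or MRPS followed by a number, with a closing letter A, B or C allowed for MRPS, joined by Ensembl identifier to the deposited gene counts. The rule gave 78 of the 64252 genes in the table, 49 named for the large subunit (MRPL) and 29 for the small subunit (MRPS), and all 78 passed the filter on low counts that left 18779 genes for testing.

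Gene counts came from RNA-seq of SK-N-BE(2), a human neuroblastoma cell line, carrying a scrambled short hairpin RNA (sh-Scb, the control group) or a hairpin against SAPCD2 (sh-SAPCD2), with 2 libraries per group. All libraries came from total RNA of this single line, so both groups carried a hairpin and no untreated cells were compared. The study made its lines by lentiviral delivery and puromycin selection, whereas the labels call the cells transfected, and no time after knockdown is given. The labels do not name which hairpin was sequenced, and a heatmap of the study calls these columns sh-SAPCD2#1.

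The libraries held 25347900 to 31850997 counts. Values below are CPM, read counts scaled to a common library size by TMM. A floor of 3 counts corresponds to 0.0955 to 0.119 CPM, and each member lay far above it with 113 to 4346 counts per library. SAPCD2 had 83.6 and 82.2 CPM in the control libraries, against 35.4 and 52.5 CPM after SAPCD2 knockdown, a log2 fold change of -0.91 (SE 0.193, adjusted p = 0.0206 by edgeR's quasi-likelihood test). The SAPCD2 mRNA was therefore lower in both knockdown libraries, and less so in the second. Its transcript has a GC content of 66.5%, and its log2 ratio of the second to the first knockdown library was 0.57. Tested protein-coding genes with a GC content of at least 60% had a median of 0.45 for this ratio. Whether the knockdown itself was weaker in the second library was not tested. All 7 adrenergic neuroblastoma markers checked were expressed. Of 6 markers of other cells, the mesenchymal marker PRRX1 had no count in any library and the hepatocyte marker ALB stayed at or under 0.615 CPM, but the leukocyte marker PTPRC had 8.94 to 12.4 CPM, the collagen genes COL3A1 and COL1A1 had 7.70 to 9.27 and 2.13 to 4.27 CPM, and the epithelial marker EPCAM had 3.40 to 4.58 CPM. The labels do not say that libraries came from separate cultures, so the p-values measure only the spread between these libraries.

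The mitochondrial ribosome translates the handful of membrane proteins of the respiratory chain that mitochondrial DNA encodes. Its rRNAs are transcribed inside the organelle, but its proteins are encoded in the nucleus, made in the cytosol and imported. The large subunit holds the peptidyl transferase center and the small subunit the decoding center. Compared with bacterial ribosomes it has less rRNA and more protein, so that counterparts of bacterial proteins stand beside proteins found only in mitochondria.

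Most of these genes did not pass the test. At an adjusted p below 0.05, 5 members rose (MRPL34, MRPS34, MRPS12, MRPS7 and MRPL17) and 6 fell (MRPL11, MRPS27, MRPL1, MRPS11, MRPL13 and MRPL49) after SAPCD2 knockdown. These 11 are 14.1% of the members, beside 24.8% of all tested genes and 32.6% of the tested genes whose mean CPM lay in the range of the members. In each direction the background was 12.4% of tested genes higher and 12.5% lower. Only MRPL11 and MRPS27 were also past the study's limit of an absolute log2 fold change over 1, a combination that 9.84% of all tested genes met. The groups did not overlap for 51 members, 28 of them higher and 23 lower in the sh-SAPCD2 libraries, whereas 67.0% of all tested genes were so separated. Because bulk RNA was measured on a relative scale, fewer cells of a kind and less RNA per cell cannot be told apart.

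The members' log2 fold changes had a median of 0.08 and quartiles of -0.17 and 0.28, beside a median of 0.02 and quartiles of -0.40 and 0.42 for all tested genes. The SD of the log2 fold change was 0.454 over the members and 0.800 over all tested genes. Of the members, 44 had a log2 fold change above 0 and 34 below. Among the 67 members that did not pass the test, log2 fold changes ran from -0.40 to 0.94 with a median SE of 0.142, and 42 of them lay within 0.25 of 0. Beside the threshold lay MRPS12 (adjusted p = 0.048) on one side and MRPS21 (0.0534) and MRPS10 (0.0552) on the other, by edgeR's test.

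**Figure D1:**
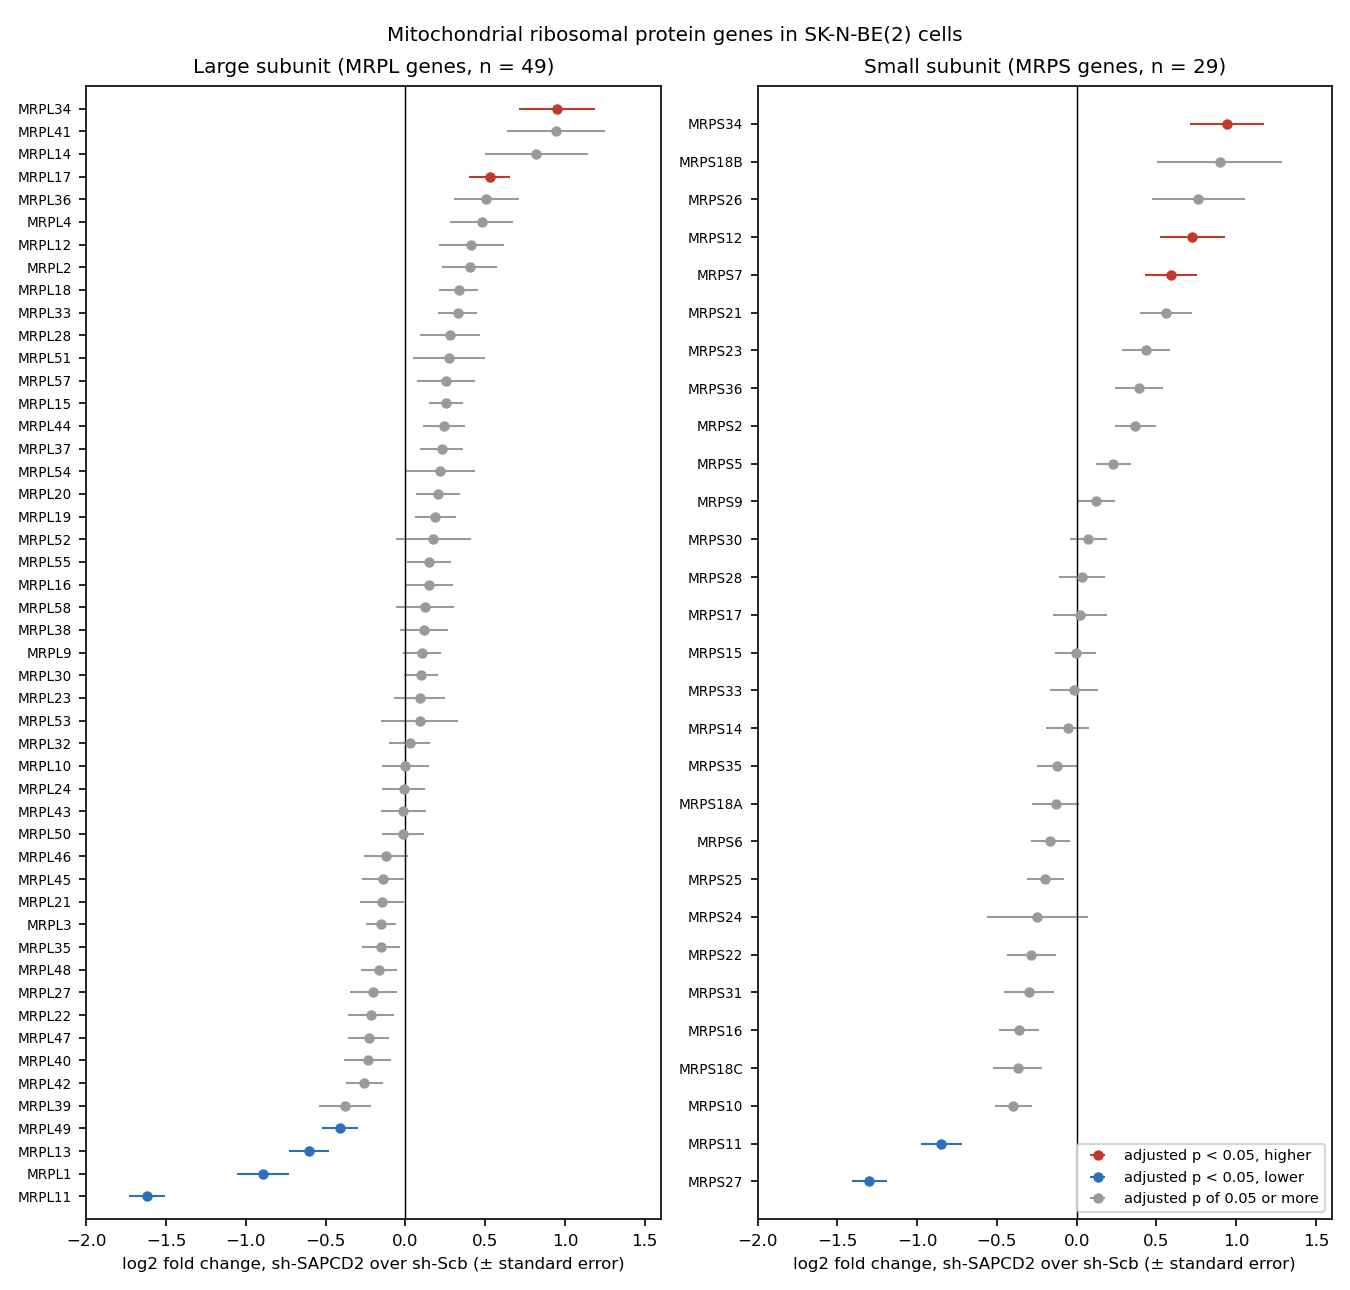
Log2 fold change of sh-SAPCD2 over sh-Scb for each of the 49 large-subunit (left) and 29 small-subunit (right) genes, ordered by value, with bars of 1 standard error. Red and blue points are the 5 higher and 6 lower genes at an adjusted p below 0.05, and most gray points lie close to 0.

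Summed over all members, the level was 3488 and 3544 CPM in the control libraries and 3359 and 3928 CPM in the sh-SAPCD2 libraries. The knockdown libraries thus fell on either side of the controls. The share of all counts given to members came to 0.351% and 0.355% for the controls, against 0.335% and 0.387% after knockdown. Large-subunit genes summed to 2261 and 2312 CPM against 2198 and 2585 CPM, and small-subunit genes to 1227 and 1232 CPM against 1162 and 1344 CPM. For neither subunit did the sum separate the groups.

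Large and small subunit were then set side by side. Of the 49 large-subunit genes, 2 rose and 4 fell (12.2% in all), with a median log2 fold change of 0.10. Of the 29 small-subunit genes, 3 rose and 2 fell (17.2%), with a median of -0.01. The medians differed by 0.11. On a different measure, the large-minus-small difference in centered log2 CPM, the SD between libraries of one group was 0.106. Per library that difference was -0.11 and 0.0034 in the controls and -0.10 and 0.08 in the knockdown libraries, so the groups overlapped. The sign of the difference between the medians was not stable. It became -0.0624 with the correction for GC content and length, -0.0575 without the second sh-SAPCD2 library and -0.206 among members with no exon overlap. MRPS18A and MRPS30 carry small-subunit names but sit in the large subunit of the human mitoribosome. Counting them there gave medians of 0.10 and -0.01. MRPS36 was counted as a small-subunit member by its name alone, and whether it is a mitoribosomal protein was not checked. Leaving it out, a setting that was not planned, gave a small-subunit median of -0.0118 and a difference of 0.117.

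The largest falls in each subunit were in MRPL11 and MRPS27. MRPL11 (ENSG00000174547, chr11:66435075-66466738, minus strand, hg38), the counterpart of the bacterial protein at the base of the stalk that engages translation factors, had 88.2 and 88.6 CPM in the control libraries, against 28.2 and 29.3 CPM after SAPCD2 knockdown. Its knockdown libraries lay at about the same level and well below both controls. The log2 fold change was -1.62 (SE 0.110, adjusted p = 0.00201), a 3.07-fold lower level. MRPS27 (ENSG00000113048, chr5:72214953-72321717, minus strand), a pentatricopeptide repeat protein found only in mitochondrial small subunits, had 119.5 and 120.8 CPM against 51.6 and 46.2 CPM. Again the groups were far apart compared with their spread, and the log2 fold change was -1.30 (SE 0.111, adjusted p = 0.00263).

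The exons of MRPS27 overlap those of PTCD2, a mitochondrial RNA-processing gene on the opposite strand, over 1.41% of the exonic bases of MRPS27. PTCD2 fell as well, from a mean of 14.0 CPM to 6.67 CPM (log2 fold change -1.07, adjusted p = 0.00765). PTCD2 was named after its values were seen, because reads in the shared stretch cannot be assigned to one strand when the counting is not stated to use strand. MRPL11 shares 4.69% of its exonic bases with PELI3, which had means of 11.8 and 10.2 CPM (log2 fold change -0.21, adjusted p = 0.506). The part of shared reads in either fall was not tested.

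The other falls were smaller. MRPL1 (chr4:77862830-77952785, plus strand), which forms the mobile stalk beside the exit site for tRNA, had 21.8 and 23.4 CPM in the control libraries and 13.4 and 10.9 CPM after knockdown (log2 fold change -0.89, SE 0.163, adjusted p = 0.0136). MRPS11 (chr15:88467453-88480776, plus strand), a protein of the small-subunit platform, had 29.9 and 30.2 CPM against 16.7 and 16.7 CPM (log2 fold change -0.85, SE 0.128, adjusted p = 0.00801). In both genes each knockdown library lay below each control.

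MRPL13, a conserved large-subunit protein, had 34.4 and 36.4 CPM in the control libraries, against 23.7 and 22.9 CPM after SAPCD2 knockdown (log2 fold change -0.60, SE 0.126, adjusted p = 0.0199). MRPL49 (chr11:65122183-65127371, plus strand), which is specific to mitochondria, had 65.1 and 69.6 CPM against 48.7 and 52.7 CPM (log2 fold change -0.41, SE 0.114, adjusted p = 0.0462). Its exons overlap those of SYVN1 over 11.6% of their bases, and SYVN1 moved the other way (log2 fold change 0.87, adjusted p = 0.00708). Across the 6 lower genes the second sh-SAPCD2 library stood at 0.815 to 1.08 times the first, so the knockdown libraries were close to each other.

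The 5 higher genes showed a wider spread within the knockdown group. MRPL34 (ENSG00000130312, chr19:17292609-17306843, plus strand), a small basic protein of the large subunit, had 19.9 and 19.4 CPM in the control libraries, against 28.9 and 47.1 CPM after SAPCD2 knockdown (log2 fold change 0.95, SE 0.238, adjusted p = 0.0335). MRPS34 (ENSG00000074071, chr16:1771890-1773150, minus strand), a mitochondria-specific protein needed for a stable small subunit, had 55.2 and 57.2 CPM against 81.1 and 134.4 CPM (log2 fold change 0.94, SE 0.232, adjusted p = 0.0324). Both genes were higher in each knockdown library than in either control, but the second knockdown library held far more than the first.

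MRPS12 (chr19:38930944-38933168, plus strand), the decoding-center protein whose bacterial counterpart binds streptomycin, had 10.8 and 9.85 CPM in the control libraries, against 14.2 and 19.9 CPM after SAPCD2 knockdown (log2 fold change 0.73, SE 0.205, adjusted p = 0.0480). MRPS7 (chr17:75261674-75266376, plus strand), which organizes the head of the small subunit, had 49.6 and 52.1 CPM against 65.4 and 87.7 CPM (log2 fold change 0.59, SE 0.162, adjusted p = 0.0438). MRPL17 (chr11:6680385-6683340, minus strand), a conserved large-subunit protein, had 39.7 and 38.1 CPM against 51.8 and 60.3 CPM (log2 fold change 0.53, SE 0.129, adjusted p = 0.0312). In all 5 higher genes the second knockdown library was above the first, by 1.16 to 1.66 times.

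Of the exonic bases of MRPS34, 31.2% overlap EME2, which had a log2 fold change of 0.38 (adjusted p = 0.249), and 14.6% of those of MRPL34 overlap ABHD8, at -0.16 (adjusted p = 0.660). MRPS7 shares 6.94% of its exonic bases with GGA3 and MIF4GD together, and both of those genes fell (log2 fold changes of -0.51 and -0.61, adjusted p = 0.0312 and 0.0388). Of all 78 members, 41 had exonic bases in common with another annotated gene, among them 8 of the 11 that passed the test. Among the 37 members with no such overlap, MRPL17 and MRPS12 rose and MRPL1 fell. Pseudogenes of this family are common in the human genome. The 78 in the table, picked by symbol, took 0.304% of the combined counts of members and pseudogenes. Most of this lay in MRPS31P5 and MRPS31P4. The handling of multi-mapping reads is not given, so this share does not show how such reads were assigned.

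**Figure D2:**
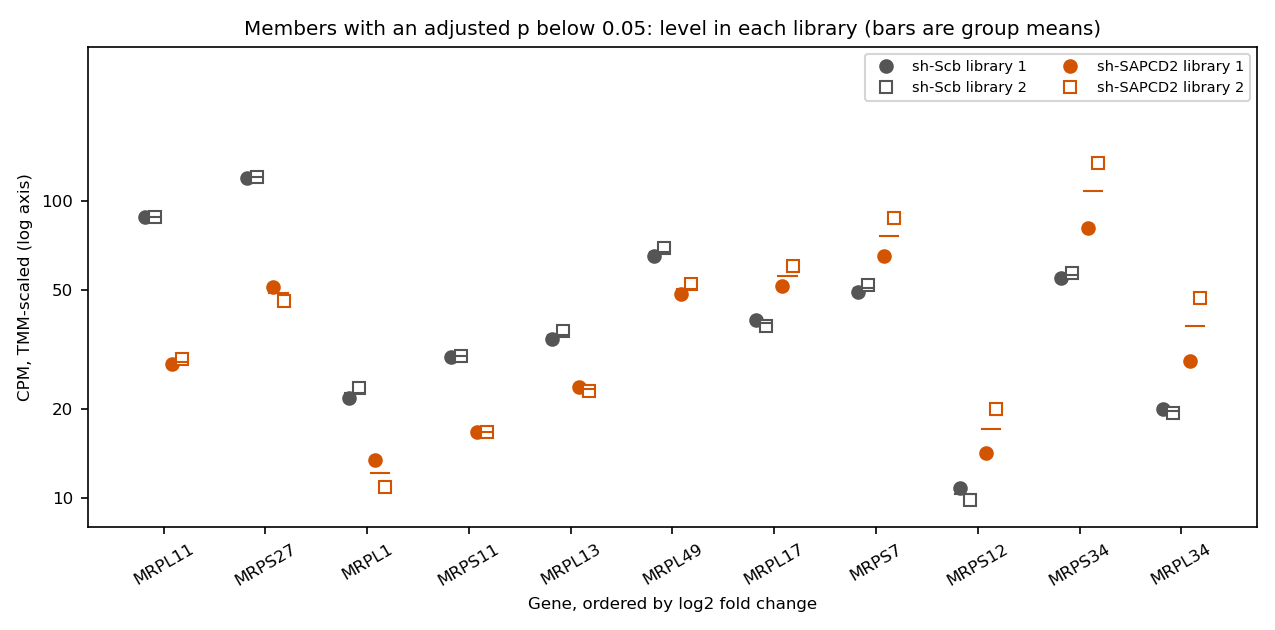
Level of the 11 genes with an adjusted p below 0.05 in each library, in TMM-scaled CPM on a log axis, with group means as bars. The knockdown libraries of the 6 lower genes lie close together, whereas those of MRPL34 (28.9 and 47.1 CPM) and MRPS34 (81.1 and 134.4 CPM) are far apart.

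Promoters are shown for the 2 largest changes each way among members that passed the test, taken from RefSeq (GRCh38.p14, 250 bases before to 50 bases after the gene start, written along the strand of the gene). RefSeq starts can differ from the GENCODE bounds given above, and those of MRPL11 and MRPS27 lie inside these bounds. Capitals mark AAGATGG, a core of the motif of YY1, and CCGGAAG, a core of ETS factors such as GABP, in either strand.
MRPL11, chr11:66438799-66439098, minus strand: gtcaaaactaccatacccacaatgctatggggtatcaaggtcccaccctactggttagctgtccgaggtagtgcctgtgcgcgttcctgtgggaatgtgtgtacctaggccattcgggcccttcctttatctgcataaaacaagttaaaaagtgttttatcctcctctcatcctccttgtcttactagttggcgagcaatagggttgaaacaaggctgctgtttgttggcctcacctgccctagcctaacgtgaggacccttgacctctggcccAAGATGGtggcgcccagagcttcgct
MRPS27, chr5:72320191-72320490, minus strand: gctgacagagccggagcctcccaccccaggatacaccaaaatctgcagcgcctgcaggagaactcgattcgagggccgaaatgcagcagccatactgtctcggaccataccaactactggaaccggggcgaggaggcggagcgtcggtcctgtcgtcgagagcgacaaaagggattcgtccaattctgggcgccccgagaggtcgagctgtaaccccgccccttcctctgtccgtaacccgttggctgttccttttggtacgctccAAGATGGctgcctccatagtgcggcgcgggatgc
MRPS34, chr16:1773085-1773384, minus strand: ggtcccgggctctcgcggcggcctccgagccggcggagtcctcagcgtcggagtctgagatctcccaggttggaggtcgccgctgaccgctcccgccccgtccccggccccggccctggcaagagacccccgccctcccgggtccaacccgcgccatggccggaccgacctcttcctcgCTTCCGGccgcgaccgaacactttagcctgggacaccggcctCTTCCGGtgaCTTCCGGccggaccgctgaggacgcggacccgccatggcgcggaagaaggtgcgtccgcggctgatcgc
MRPL34, chr19:17292323-17292622, plus strand: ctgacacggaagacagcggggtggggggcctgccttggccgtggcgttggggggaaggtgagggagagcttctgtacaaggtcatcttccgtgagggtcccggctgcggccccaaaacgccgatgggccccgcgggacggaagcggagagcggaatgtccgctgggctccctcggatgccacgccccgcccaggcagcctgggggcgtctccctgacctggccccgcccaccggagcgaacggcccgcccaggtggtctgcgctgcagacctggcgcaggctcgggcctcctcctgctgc

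Both promoters of the genes that fell most hold AAGATGG just downstream of the start, at 24 bases in MRPL11 and 16 bases in MRPS27. It was not particular to lower genes, since MRPS7, which rose, holds it at 19 bases and MRPS12, which rose, at -211 bases. Of the other lower genes MRPL49 holds it at -68 bases, MRPL1 and MRPS11 lack it, and MRPL13 had no matched promoter. The MRPS34 promoter holds the ETS core 3 times, and the MRPL34 promoter holds neither motif. RefSeq promoters were matched for 69 of the 78 members. The ETS core was present in 29 of these (42.0%), compared with 10.7% of 27305 promoters of all genes and 18.6% of 10996 promoters of tested protein-coding genes. AAGATGG was present in 23 (33.3%), compared with 6.06% and 7.28%. Members with it had a median of -0.12 on the log2 fold scale and the other members one of 0.12, while the medians with and without the ETS core were 0.10 and 0.05.

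Other motifs were less frequent. The half-site GCGCATG of NRF1, a regulator of nuclear genes for mitochondrial proteins, was in 7 promoters of members (10.1%, beside 4.67% of all promoters and 7.29% of those of tested protein-coding genes). The E-box CACGTG was in 6 (8.70%, beside 7.43% and 10.1%), the E2F core TTTCCCG in 6 (8.70%, beside 4.34% and 6.55%) and the cyclic AMP response element TGACGTCA in 0 (beside 1.98% and 3.21%). Both strands were searched, and hits of different motifs overlapped in 0 promoters of members. A match is only a run of letters and says nothing of binding in these cells.

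A hairpin can lower unintended mRNAs through short matches in their 3′ untranslated regions (3′ UTRs). The arms of sh-SAPCD2 #1 are shown because some falling members carry matches to them, with bases 2 to 8 of the antisense arm in capitals.
sh-SAPCD2 #1 sense arm: acctctggattccaccttcat
sh-SAPCD2 #1 antisense arm: aTGAAGGTggaatccagaggt

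The site for this designed seed, ACCTTCA, occurs in the 3′ UTR of 6 members (7.69%), beside 12.5% of 13583 tested protein-coding genes with a 3′ UTR. Of these 6 genes MRPL13 fell and MRPL17 rose. An earlier look at these libraries had singled out 4 other 7-mers. They are TCCACCT and the related CCACCTA, which resemble the sense arm, and AGAGGTC with the related GAGGTCA, which resemble the end of the antisense arm. All of them share 5 to 7 bases in a row with that arm, and, having been picked from these libraries, they are no independent evidence here. At least 1 of them occurs in 16 members (20.5%), beside 33.9% of the tested protein-coding genes. They were found in 3 of the 6 lower members, MRPL11, MRPS11 and MRPL49, and in 0 of the 5 higher members. Among tested protein-coding genes, 47.0% of the 1894 that fell and 27.2% of the 2062 that rose carried one, so the share among the lower members was near that of lower genes at large. The 16 members with a site had a median of -0.20 on the log2 fold scale and the other 62 one of 0.11. Tested protein-coding genes with and without a site had medians of -0.07 and 0.09. Genes with a site also had longer transcripts of lower GC content. Among members the medians were 2406 against 1169 bases and 46.85% against 49.75% GC. Among tested protein-coding genes they were 4825.5 against 2778 bases and 47.4% against 49.6% GC. The part of length and GC content in these log2 fold changes was not tested. The stretches of MRPL11 and MRPL49 are given with the 7-mer in capitals, and that of MRPS11 with its longest match to the sense arm in capitals.
MRPL11, 7-mer at chr11:66435933-66435939, minus strand: ggggaggaagGAGGTCAcaccaatatg
MRPL49, 7-mer at chr11:65126219-65126225, plus strand: cactgcaactTCCACCTctgggatcaa
MRPL49, 7-mer at chr11:65126432-65126438, plus strand: atgtgcctggTCCACCTtggcctgttt
MRPS11, match at chr15:88478508-88478519, plus strand: ttgccacctACCTCTGGATTCtgatggatt

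The MRPS11 3′ UTR thus holds the first 12 bases of the sense arm. These are complementary to the end of the antisense arm, outside its bases 2 to 8. It was the longest such run in any member. The median run was 6 bases over members and 7 over tested protein-coding genes. Only 30 of the 13583 tested protein-coding genes (0.221%) had a run as long as that of MRPS11. The next longest runs among members, 11 bases in MRPL19 and 9 in MRPL52, were in genes that did not pass the test. MRPS27 and MRPL1, which both fell by more than MRPS11, hold none of the 5 sites. Whether any site lowered its mRNA was not tested.

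Some members that did not pass the test are described because of their roles. MRPL12, the stalk protein that has also been linked to the mitochondrial RNA polymerase, had 78.4 and 77.99 CPM in the control libraries, against 81.7 and 126.4 CPM after SAPCD2 knockdown (log2 fold change 0.41, SE 0.205, adjusted p = 0.188). MRPL41, which is specific to mitochondria, had 24.8 and 24.3 CPM against 31.6 and 62.7 CPM (log2 fold change 0.94, SE 0.307, adjusted p = 0.0714). For both genes the knockdown libraries lay above the controls but differed more from each other than the controls did. MRPS2, a conserved small-subunit protein, had 59.0 and 55.9 CPM against 67.4 and 80.8 CPM (log2 fold change 0.37, SE 0.130, adjusted p = 0.0883).

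The paralogs of bacterial S18 had log2 fold changes of either sign. MRPS18C had 25.6 and 21.2 CPM in the control libraries and 18.3 and 17.9 CPM in the knockdown libraries (log2 fold change -0.37, SE 0.153, adjusted p = 0.128). MRPS18A had 26.1 and 27.7 CPM against 22.3 and 26.8 CPM (log2 fold change -0.13, SE 0.148, adjusted p = 0.550). MRPS18B had 10.2 and 4.11 CPM against 12.9 and 13.7 CPM (log2 fold change 0.90, SE 0.392, adjusted p = 0.145), and here the control libraries, not the knockdown libraries, were far apart. None of the paralogs passed the test, and differences between them were not tested.

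MRPL3, which lies near the peptidyl transferase center, had 155.7 and 156.3 CPM in the control libraries, against 142.3 and 138.4 CPM after SAPCD2 knockdown (log2 fold change -0.15, SE 0.0943, adjusted p = 0.280). MRPL58, a peptidyl-tRNA hydrolase that became part of the ribosome, had 19.4 and 22.4 CPM against 19.6 and 25.9 CPM (log2 fold change 0.12, SE 0.181, adjusted p = 0.657). MRPS30 had 57.6 and 63.5 CPM against 64.5 and 62.9 CPM (log2 fold change 0.07, SE 0.113, adjusted p = 0.665). For MRPL58 and MRPS30 the groups overlapped.

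Levels between genes were compared per kilobase of the canonical transcript, as the mean over the 4 libraries. They ran from 6.04 to 122.0 CPM per kilobase with a median of 29.6, and the median was 31.6 for large-subunit and 21.4 for small-subunit genes. MRPL20 (122.0), MRPL33 (97.6) and MRPL12 (90.3) were highest. MRPL42 (6.04), MRPS11 (6.89) and MRPS18B (7.31) were lowest. The value of MRPL42 depends on its long annotated canonical transcript of 15557 bases, since members had a median transcript of 1242 bases. MRPL20 had 79.0 and 79.7 CPM in the control libraries and 80.8 and 102.1 CPM in the knockdown libraries (log2 fold change 0.21, SE 0.138, adjusted p = 0.317), so the most abundant transcript per length did not pass the test.

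The knockdown libraries differed from each other along the GC content of the members' transcripts. The second library was above the first for 56 of 78 members, compared with 50.5% of all tested genes. The second control library was above the first for 50 of 78 members, compared with 50.6% of all tested genes. The second knockdown library differed from the first by over 1.5-fold for 11 members (14.1%, beside 18.04% of all tested genes). In all 11 the second was the higher. Between the control libraries only 1 member, MRPS18B, differed by that much (1.28%, beside 10.4% of all tested genes). Across the 78 members the log2 ratio of the second to the first knockdown library had a Pearson's r of 0.705 and a Spearman's rho of 0.723 with transcript GC content, where members share libraries and are not independent. The same values were 0.526 and 0.648 across 13617 tested protein-coding genes, and -0.051 and -0.098 for the control libraries across the members.

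All 9 members with a GC content of at least 60%, among them MRPS34, MRPL12 and MRPL41, were higher in the second knockdown library, with a median log2 ratio of 0.61. Of the 43 members from 45% to under 60%, 39 were higher in it (median 0.28). Of the 26 members under 45%, 8 were (median -0.05). The median log2 fold change against the controls followed the same order, at 0.41, 0.09 and -0.09. For tested protein-coding genes in these classes it was 0.32, 0.06 and -0.08. Each of the 11 genes that passed the test also passed it in its direction after each library was corrected for GC content and length, a fit that called 26 members (17 higher and 9 lower, 33.3%) beside 39.7% of all tested genes. The correction brought the log2 fold change of MRPS34 down from 0.94 to 0.546 and that of MRPS12 from 0.73 to 0.507.

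**Figure D3:**
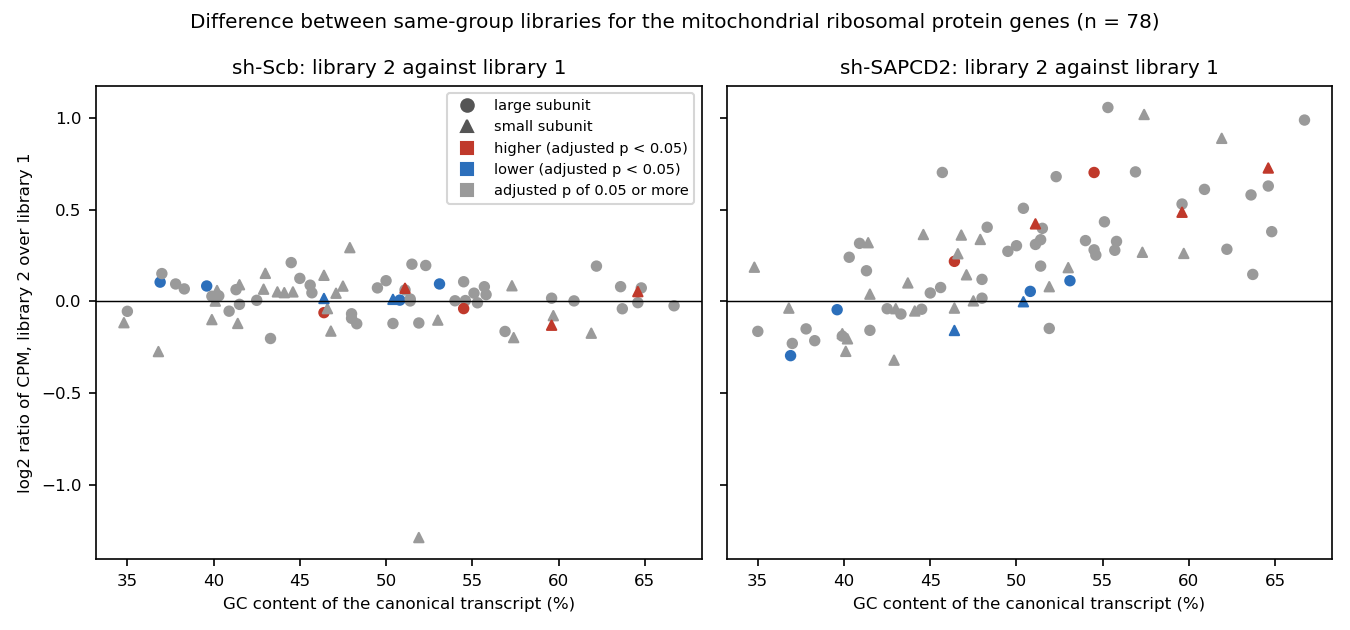
Log2 ratio of CPM in library 2 over library 1 of the same group against the GC content of the canonical transcript (%), for the control (left) and sh-SAPCD2 (right) libraries, with 1 point per gene (n = 78). The control points lie around 0 at every GC content apart from MRPS18B, while the sh-SAPCD2 points climb with GC content (r = 0.705).

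Single libraries decided many calls. Without the first sh-SAPCD2 library 29 members were higher and 15 lower (56.4% of members, beside 42.4% of all tested genes), and without the second 9 were higher and 16 lower (32.1%, beside 35.6%). Without the first control library 4 were higher and 4 lower (10.3%, beside 11.9%), and without the second 3 and 2 (6.41%, beside 11.7%). In these fits a lone library was assumed to vary like the other group. Without the second sh-SAPCD2 library the log2 fold changes of MRPL34, MRPS34, MRPS12 and MRPS7 shrank to 0.557, 0.531, 0.460 and 0.364. MRPL11 and MRPS27 passed the test in every fit that was run. MRPL34 and MRPS34 did so except without a filter on low counts, and MRPL1 and MRPS11 except without the second control library. MRPL13, MRPL17, MRPL49, MRPS7 and MRPS12 lost the call in several fits. With the replicate number as a block, 11 members were higher and 5 lower, 20.5% beside 29.6% of all tested genes.

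The other genes around the mitoribosome gave the setting for these changes, from lists compiled from general knowledge. Of 6 mitoribosomal proteins with other names, 1 passed edgeR's test (16.7%, beside 24.8% of all tested genes). It was DAP3, a GTP-binding protein of the small subunit, with 99.1 and 100.3 CPM in the control libraries and 139.6 and 135.2 CPM in the knockdown libraries (log2 fold change 0.46, adjusted p = 0.0200). Its knockdown libraries agreed closely. Of 31 assembly factors, 4 rose and 3 fell (22.6%), with a median log2 fold change of -0.04.

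TFB1M, which methylates the rRNA of the small subunit, rose from 11.98 and 11.92 CPM to 22.8 and 22.9 CPM (log2 fold change 0.93, adjusted p = 0.00733). The pseudouridine synthase gene TRUB2 rose by 0.70 on the log2 scale (adjusted p = 0.0118). ERAL1, a GTPase that binds the small-subunit rRNA, went the other way, from 30.7 and 29.002 CPM to 20.4 and 18.7 CPM (log2 fold change -0.61, adjusted p = 0.0227). The GTPase gene GTPBP8 and the endoribonuclease gene YBEY also fell (log2 fold changes of -0.73 and -0.97, adjusted p = 0.0181 and 0.0212). TFB1M and ERAL1, which both act on the small-subunit rRNA, thus changed in opposite directions. Exons of both overlap other annotated genes, among them TIAM2 for TFB1M and FAM222B for ERAL1. The part of shared reads in these changes was not tested.

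Of 18 mitochondrial translation factors, 2 passed the test (11.1%, beside 24.8% of all tested genes). OXA1L, the insertase for newly made membrane proteins, rose (log2 fold change 0.51, adjusted p = 0.0158) and MTRFR, of the release factor family, fell (-0.97, adjusted p = 0.00712). The mitochondrial rRNAs MT-RNR1 and MT-RNR2 did not pass the test (log2 fold changes of -0.43 and -0.12, adjusted p = 0.179 and 0.544). Of the 13 mRNAs that the mitoribosome translates, MT-CO2, MT-ATP6 and MT-CO3 fell (-0.58, -0.46 and -0.45, adjusted p = 0.0295, 0.0157 and 0.0238) and MT-ND6, from the other strand of mitochondrial DNA, rose (0.44, adjusted p = 0.0176). The 4 that passed were 30.8% of the 13, beside 24.8% of all tested genes, and the median of the 13 was -0.21.

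Other large gene families were set beside the members. Of 81 tested genes for cytosolic ribosomal proteins, 2 passed the test (2.47%), both higher. Of the 81, 70 lay above 0, around a median of 0.27 on the log2 fold scale. Their list summed to 62906 and 61594 CPM in the controls, against 64360 and 81951 CPM after knockdown. The second knockdown library thus stood far above the first. Of 77 tested nuclear genes for respiratory chain subunits, 1 rose and 5 fell (7.79%), with a median of 0.11. Their list summed to 7255 and 7206 CPM in the controls, against 6613 and 8170 CPM after knockdown, on either side of the controls. These shares and medians are descriptions, and differences between the families were not tested.

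**Figure D4:**
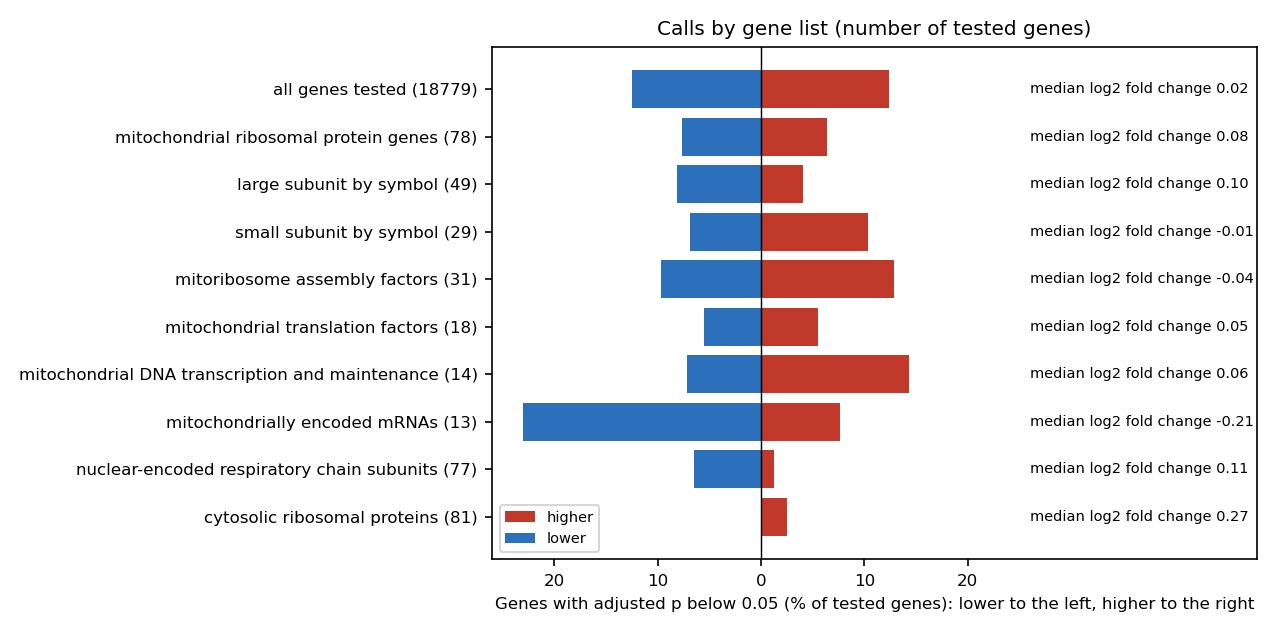
Share of tested genes in each list with an adjusted p below 0.05, lower to the left and higher to the right, in percent, with the number of tested genes in parentheses and the median log2 fold change at the right. The 78 members (5 higher, 6 lower) lie between all tested genes (24.8% in all) and the cytosolic ribosomal protein genes (2.47%).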

How the data were processed

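Per the labels and the study's methods, the authors prepared libraries from TRIzol-extracted total RNA with an Illumina TruSeq RNA kit, sequenced paired-end reads, aligned them to hg38 (HISAT2 2.2.0 in the submitters' processing notes), estimated abundances with StringTie and deposited whole-number counts per Ensembl gene, not scaled for library size. The annotation release, the use of strand and the handling of multi-mapping reads are not given in the sources used here.

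Counts were scaled by TMM and tested in R 4.3.3 by edgeR 4.0.16 (quasi-likelihood F test) after filterByExpr (minimum count 10, minimum total 15), adjusting p by Benjamini-Hochberg across the 18779 genes kept, with the group as the only term. The biological coefficient of variation was 15.4%. The standard error is the absolute log2 fold change divided by the square root of F. Symbols, positions, lengths and GC content came from GENCODE 44 (hg38). Centered log2 CPM used a prior count of 2. The steps were tested on simulated data. The floor covers counting error only, whereas the standard error also takes in the dispersion fitted between libraries.

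The same values were recomputed with DESeq2 1.42.0, with edgeR on DESeq2 size factors or on unscaled library totals, with other filters, with the replicate number as a block, with a loess correction for GC content and length (span 0.3), without each library in turn, and for members without exon overlap. Named with values were members that passed the test, 12 members fixed by role, the 3 highest and lowest per kilobase, and up to 5 genes of each other list by p. Genes overlapping a member, MRPS21 and MRPS10 were named after their values were seen. Members and lists were chosen with earlier results of these data known.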

Additional observations from a re-analysis of the deposited data

How the results depend on the processing

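With 2 libraries per group, the count of members called depended on the fit. Against 5 higher members, 12 were higher with DESeq2 (21.8% of members called either way, beside 26.4% of the 18103 genes with an adjusted p and 13.7% of all 34935 genes with a count), 11 with the replicate block, 17 with the GC and length correction and 17 with that correction and the block, but 0 without a filter on low counts (5.13% of members called either way, beside 6.47% of all genes), although 13 had an unadjusted p below 0.05 and were higher. Under the other settings named the share of members stood beside 29.6% (block, 20.5% of members), 39.7% (correction, 33.3%) and 38.8% (both, 30.8%) of all tested genes. Only 2 higher, 1 lower and 0 past the study's thresholds lay among members with no exon overlap, a smaller list, and 3 lower among members without a hairpin-related 7-mer, chosen after seeing the data. Leaving out 1 library gave 3 to 29 higher, 2 to 16 lower and 2 to 8 past the thresholds.

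The median log2 fold change stayed small. Leaving out 1 library moved it from -0.0396 to 0.14 for all members, -0.0476 to 0.214 for the large subunit, -0.0603 to 0.0758 for the small subunit and -0.0575 to 0.186 for the difference. The small-subunit median became 0.0887 with the GC and length correction, 0.0826 with the block added and 0.232 without exon overlap, and the difference of large minus small became -0.0624, -0.0562 and -0.206, so its sign depended on these choices, and the cause was not tested. The log2 fold change of MRPL58, 0.12, turned to -0.0923 without sh-SAPCD2 replicate 2 and was 0.30 without sh-SAPCD2 replicate 1.

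The numbers in the labels do not state pairing, and deviations of same-numbered libraries had a correlation of -0.0188, so the block is given here only as a setting: MRPL49 lost its call under it.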

Other observations

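Among genes that regulate mitochondrial content, 1 of 10 passed the test (10%, beside 24.8% of all tested genes). It was ESRRA, the estrogen-related receptor that activates many nuclear genes for mitochondrial proteins, with 35.4 and 35.9 CPM in the control libraries and 76.8 and 128.9 CPM in the sh-SAPCD2 libraries (log2 fold change 1.53, SE 0.242, adjusted p = 0.00917 by edgeR's quasi-likelihood test). Both knockdown libraries lay above both controls, and the second was again the higher.

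Of 14 genes for transcription and maintenance of mitochondrial DNA, 2 rose and 1 fell (21.4% in all, beside 24.8% of all tested genes). POLG, the mitochondrial DNA polymerase, had 69.5 and 62.1 CPM against 88.1 and 105.2 CPM (log2 fold change 0.55, adjusted p = 0.0297), and TFB2M, a transcription factor of mitochondrial DNA, had 20.1 and 24.9 CPM against 31.8 and 35.0 CPM (log2 fold change 0.57, adjusted p = 0.0447). MGME1, an exonuclease needed for replication of mitochondrial DNA, fell from 67.4 and 71.1 CPM to 41.1 and 36.1 CPM (log2 fold change -0.84, adjusted p = 0.00730).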
